A study of Mus musculus with 8 samples.

Results

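The comparison described here is the 3-day differentiation of control cells, set as 2 libraries from embryoid bodies (EBs) against 2 libraries from the embryonic stem cells (ESCs) they were made from, all of control genotype. These 4 libraries were chosen by their sample labels out of the 8 in the series. The series also holds 4 libraries in which the zinc finger gene Zfp462 was knocked out, 2 from ESCs and 2 from day 3 EBs.

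All samples came from R1, a mouse ESC line. The control ESCs carried the WT genotype and were grown on gelatin in serum medium with leukaemia inhibitory factor (LIF), the cytokine that keeps mouse ESCs self-renewing. For EBs, ESCs were separated into single cells with trypsin and left in Petri dishes for 3 days, where they gather into floating clumps; the labels do not name the EB medium or say whether it held LIF. Polyadenylated RNA was sequenced, and reads were counted per gene. The labels do not say whether replicates came from separate cultures, so the p-values measure only how far these samples differ, which may reflect technical repeats.

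ESCs in serum and LIF hold the naive pluripotent state of the early epiblast, kept by factors such as Nanog, Esrrb, Klf4 and Tfcp2l1, and by LIF acting through the kinase JAK1 and the transcription factor STAT3. When they leave it they pass through a formative state, known by Fgf5, Otx2, Pou3f1 and Dnmt3b, before the germ layers appear. In EBs the surface cells can form extraembryonic endoderm, whose visceral part takes up and secretes carrier proteins, while inner cells follow the epiblast. Bulk RNA measures all of these together: for every result below, fewer cells of a kind and less RNA per cell cannot be told apart.

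The 4 control libraries held 12119763 and 16228426 counts in ESCs and 15548539 and 13129856 counts in EBs. Levels are given as counts per 1000000 (CPM) of a library size scaled by the trimmed mean of M-values (TMM), and changes as log2 of EB over ESC with the standard error of the fit. Of 9590 genes with a mean over 10 CPM, 3 differed over 2-fold between the ESC replicates and 4 between the EB replicates, against 166 between the knockout ESC replicates. Zfp462 itself, read as a check of the labels, stood at 182 and 194 CPM in the ESC libraries and 153 and 129 CPM in the EB libraries, and at 104 and 107 CPM in the knockout ESC libraries and 102 and 102 CPM in the knockout EB libraries; the labels do not say which part was deleted, so the remaining transcript checks nothing.

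In the fit of the 4 control libraries 34.6% of the tested genes were called between EBs and ESCs, most of them with small changes. Of 16111 genes tested with edgeR's quasi-likelihood test, 2932 were higher in EBs (18.2%) and 2639 lower (16.4%) at a Benjamini-Hochberg adjusted p under 0.05, and the median change of all genes was 0.01. These shares are the background for the counts of every gene list below. With at least a 2-fold change, 721 were higher (4.48%) and 765 lower (4.75%). Scaled by library totals alone, 2339 were higher and 3237 lower, so that the higher genes made up 41.9% of the calls in place of 52.6%. With a trend on GC content removed the share was 57.8%. Without control ESC replicate 2 the counts were 1944 higher and 1619 lower. Of 209 genes picked by a fixed rule and reported, 202 were called, and 119 also passed a test against a 1.5-fold change.

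Of genes that reached 5 CPM in whichever group was higher and whose groups did not overlap, the largest rises joined genes of the epiblast, of visceral endoderm and of antigen processing. Fgf5 (chr5:98254184-98277030, plus strand, mm10), a growth factor of the post-implantation epiblast, stood at 1.54 and 1.81 CPM in the ESC libraries and 57.7 and 63.8 CPM in the EB libraries. The EB libraries were 35.6-fold higher, with no overlap (log2 change 5.16 ± 0.16, adjusted p = 9.11e-13). Next came Afp, the alpha-fetoprotein of yolk sac and fetal liver (4.88), Fosb, a subunit of the AP-1 transcription factor (4.63), Psmb8, a catalytic subunit of the immunoproteasome (4.22), Oasl2, an interferon-induced gene (4.03), and Apoa1, the main protein of high density lipoprotein (3.96). The other 9 of the 15 largest rises lay between 3.50 and 3.77: the noncoding RNA Miat, the WNT ligand Wnt8a, the forkhead gene Foxi3, the glutamate receptor gene Grm6, the metalloproteinase gene Mmp25, Ttr, Vrtn, the kinase gene Pim2 and the imprinted gene Magel2.

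Under the same limits of level and overlap, the largest falls were led by a naive pluripotency factor; genes below 5 CPM reached larger fitted changes. Tfcp2l1 (chr1:118627945-118685168, plus strand) stood at 374 and 387 CPM in the ESC libraries and 32.6 and 29.96 CPM in the EB libraries, a 12.1-fold fall with no overlap (log2 change -3.60 ± 0.07, adjusted p = 1.43e-15). Nrp2, a co-receptor for semaphorins and VEGF, went from 118 and 122 CPM to 11.9 and 7.62 CPM (log2 change -3.60 ± 0.13, adjusted p = 2.58e-12). Then followed Inhbb, a subunit of activin B (-3.39), Socs3, the feedback inhibitor of LIF signalling (-3.37), and the lipase gene Pla2g7 (-3.29). A further 9 of the 15 largest falls lay between -3.24 and -2.79: Lrrc34, Mras, Cpsf4l, Emp1, Adgrd1, Pramel7, Mobp, Tcl1 and Gjb5. Pramel7 belongs to a family of near-identical copies, so its counts are uncertain.

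**Figure D1:**
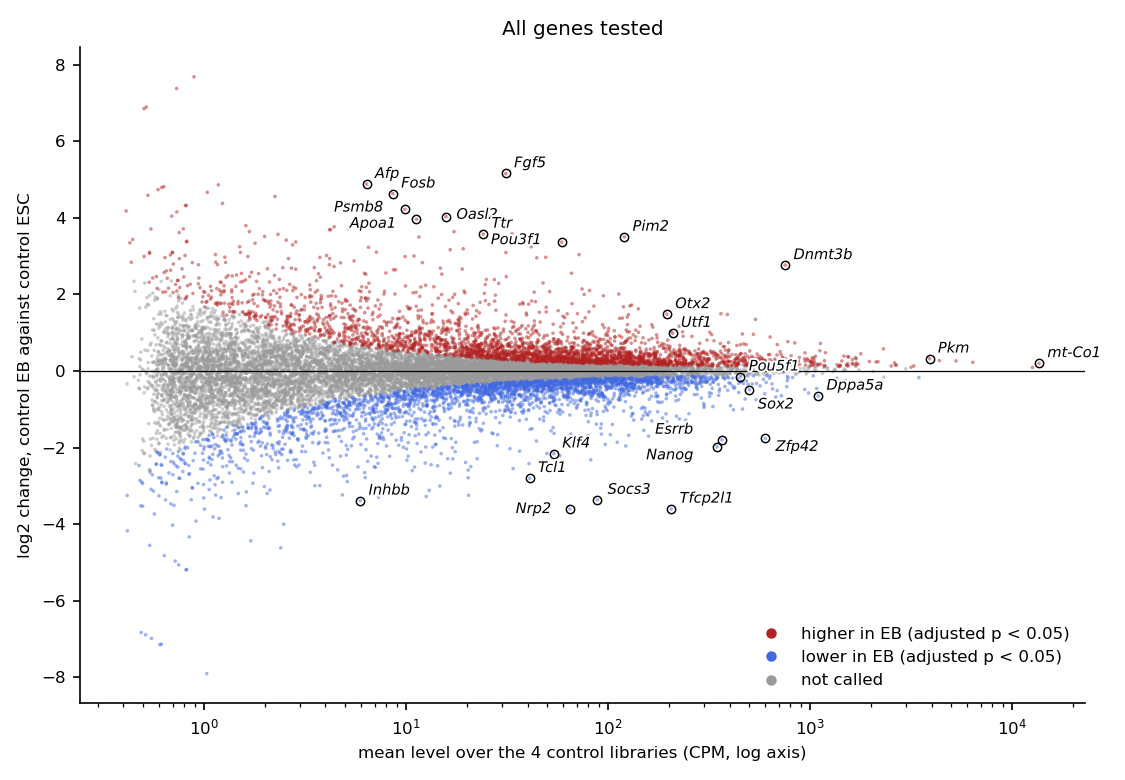
Each point is 1 of the 16111 genes tested, placed by its mean level over the 4 control libraries (CPM, log axis) and its log2 change in EBs against ESCs; colours mark the call at an adjusted p under 0.05. Fgf5 sits at the top at 5.16 and Tfcp2l1 and Nrp2 at the bottom at -3.60 among the labelled genes, while Pou5f1 lies near 0.

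In absolute amount, the largest gain among nuclear genes was that of the DNA methyltransferase Dnmt3b. The 6 largest rises in mean CPM were those of mt-Co1, Dnmt3b, Hsp90ab1, Npm1, Ptma and Pkm, and the 6 largest falls those of Zfp42, Slc2a3, Dppa5a, Nanog, Hsp90aa1 and Esrrb. mt-Co1, a mitochondrially encoded subunit of cytochrome oxidase, went from 13100 and 12240 CPM to 14340 and 14760 CPM (log2 change 0.20 ± 0.03, adjusted p = 7.84e-05), but was not called in a fit of all 8 libraries (adjusted p = 0.0859). The chaperone gene Hsp90ab1 went from 5875 and 5924 CPM to 7027 and 6784 CPM while its stress-induced relative Hsp90aa1 went from 3603 and 3729 CPM to 3276 and 3234 CPM. Those 2 changes were small (0.23 and -0.17), and that of Hsp90aa1 was not called with a GC content trend removed (adjusted p = 0.199) and in a fit of all 8 libraries (adjusted p = 0.239).

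Among core pluripotency genes, Nanog fell while Pou5f1 and Sox2 changed by less than 1.5-fold. Of 17 genes in this list, 5 were higher, 9 lower and 3 not called, with a median of -0.15. Nanog (chr6:122707489-122714633, plus strand), the homeobox factor that stabilises self-renewal, stood at 539 and 566 CPM in the ESC libraries and 154 and 127 CPM in the EB libraries. Its 3.93-fold fall was far beyond the spread of the replicates (log2 change -1.98 ± 0.07, adjusted p = 2.58e-12). Pou5f1 (Oct4), without which pluripotency is lost, stood at 487 and 466 CPM in the ESC libraries and 424 and 436 CPM in the EB libraries (log2 change -0.15 ± 0.05, adjusted p = 0.0228). Its libraries did not overlap either, but the call was lost in a fit of all 8 libraries (adjusted p = 0.312), without control ESC replicate 1 (adjusted p = 0.201) and without control ESC replicate 2 (adjusted p = 0.0512). Sox2, the partner of Oct4 on DNA, fell by a small amount (564 and 607 CPM in ESCs and 441 and 395 CPM in EBs; log2 change -0.49 ± 0.06, adjusted p = 4.03e-06). Tdgf1, the NODAL co-receptor Cripto, was also lower (-0.57), as were Tet1 (-1.01) and Zfp462 (-0.42, adjusted p = 0.000299). Against this trend Utf1, a chromatin protein of pluripotent cells, rose from 134 and 146 CPM to 268 and 288 CPM (log2 change 0.99 ± 0.06, adjusted p = 2.57e-09), and the RNA-binding protein gene Lin28a rose with it (0.39).

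Naive pluripotency genes were lower almost throughout. Of 22 tested, 21 were lower and none higher, with a median of -1.36. Leaving out each library in turn gave 21 lower each time. Zfp42 (Rex1), a common reporter of naive cells, stood at 951 and 903 CPM in the ESC libraries and 270.4 and 276 CPM in the EB libraries. Esrrb, an orphan nuclear receptor that upholds self-renewal, stood at 569 and 569 CPM in the ESC libraries and 176 and 152 CPM in the EB libraries. Klf4, a zinc finger factor induced by LIF, stood at 88.8 and 87.6 CPM in the ESC libraries and 18.5 and 21.2 CPM in the EB libraries. None of the 3 overlapped between groups, and their log2 changes were -1.76 ± 0.05, -1.80 ± 0.06 and -2.16 ± 0.10, with adjusted p-values of 1.09e-13, 2.14e-12 and 4.04e-11. The AKT coactivator gene Tcl1 (-2.80), the GTPase gene Mras (-3.24), the homeobox gene Gbx2 (-2.60) and the adhesion gene Jam2 (-1.70) fell alongside, with Prdm14 (-1.41), Klf5 (-1.40), Nr5a2 (-1.32) and Tbx3 (-1.0). Dppa5a went from 1326 and 1357 CPM to 868 and 841 CPM (-0.65). Klf2, a factor sustained by MEK inhibition in culture, was lower by -0.31 with adjusted p = 0.00142, but was not called in a fit of all 8 libraries (adjusted p = 0.4). Fgf4, an autocrine ligand of ESCs that drives their exit from the naive state, was the member not called (222 and 212 CPM in ESCs and 246 and 229 CPM in EBs; log2 change 0.13 ± 0.06, adjusted p = 0.0927); without control EB replicate 2 it was the 1 member called higher.

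Formative and primed epiblast genes moved the other way. Of 21 tested members 18 were higher and 2 lower, with a median of 2.07. Dnmt3b (chr2:153649450-153687730, plus strand), a de novo DNA methyltransferase, stood at 186 and 201 CPM in the ESC libraries and 1253 and 1377 CPM in the EB libraries, a 6.80-fold rise (log2 change 2.76 ± 0.06, adjusted p = 2.55e-15). Pou3f1 (Oct6), a POU factor of the post-implantation epiblast, stood at 9.38 and 11.3 CPM in the ESC libraries and 106 and 109.8 CPM in the EB libraries (log2 change 3.37 ± 0.10, adjusted p = 7.74e-13). Pim2, which encodes a survival kinase, stood at 21.3 and 18.0 CPM in the ESC libraries and 206 and 236 CPM in the EB libraries (log2 change 3.50 ± 0.09, adjusted p = 9.78e-14). The EB and ESC libraries were far apart in each of these, with no overlap. Otx2, which leads enhancers into the formative state, rose by less (102 and 104 CPM in ESCs and 307 and 271 CPM in EBs; log2 change 1.48 ± 0.07, adjusted p = 4.04e-11). The zinc finger genes Sall2 (3.24), Zic2 (2.97) and Zic5 (2.08), the carbonic anhydrase gene Car4 (2.55), the SOX gene Sox3 (2.07), Foxd3 (1.28) and Fgf15 (1.30) rose too. Etv4, an ETS factor downstream of FGF, was lower (-0.74). Tcf15 was not called (34.8 and 32.2 CPM in ESCs and 43.1 and 29.1 CPM in EBs).

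**Figure D2:**
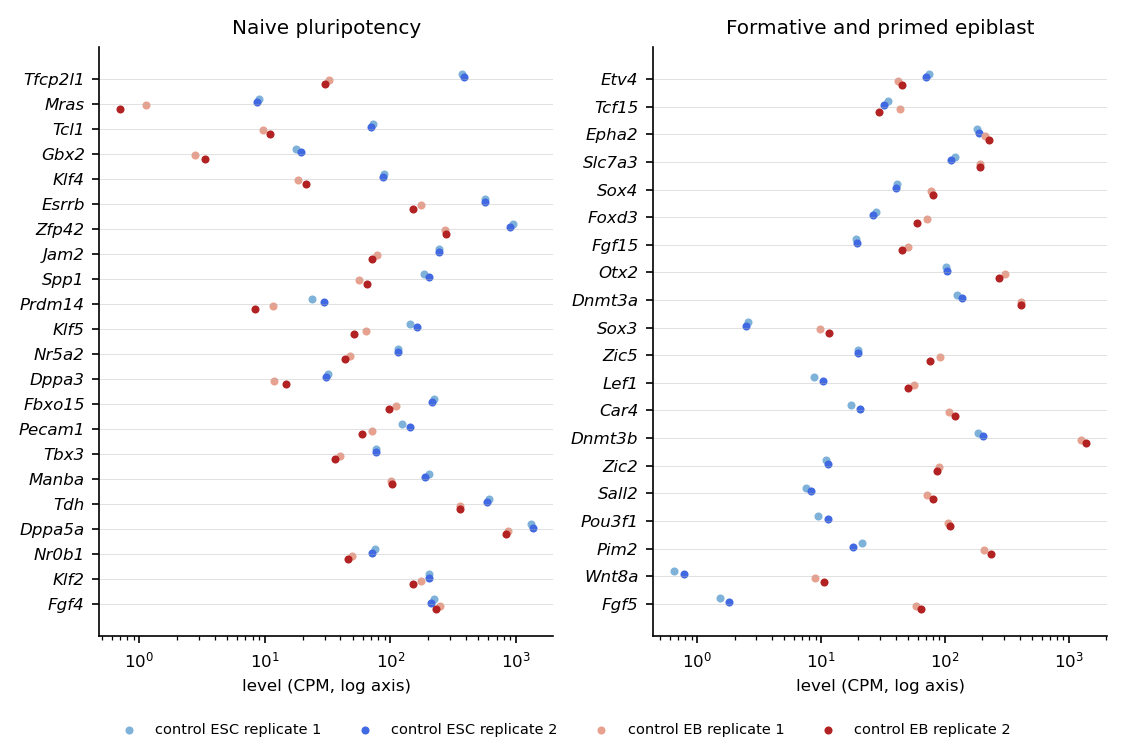
Level in each of the 4 control libraries (CPM, log axis) of the 22 naive and 20 of the tested formative and primed genes, ordered by their change. Every naive gene but Fgf4 has both EB libraries (red) left of both ESC libraries (blue), and Fgf5, at 1.54 and 1.81 CPM in ESCs, lies at 57.7 and 63.8 CPM in EBs.

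Genes of the LIF pathway and its targets were lower at nearly every step. Of 16 tested, 13 were lower and none higher, with a median of -1.11; leaving out 1 library in turn gave 11 to 13 lower. At the receptor, Lifr, the LIF-binding chain, was at 114 and 129.8 CPM in the ESC libraries and 56.2 and 54.3 CPM in the EB libraries (-1.14), and Il6st (gp130), the shared signalling chain, changed by -0.73. Stat3 fell from 158 and 154 CPM to 100.2 and 101 CPM (log2 change -0.63 ± 0.06, adjusted p = 7.77e-07). The kinase gene Jak1 was lower by a small amount (-0.33, adjusted p = 0.00734), but was not called with a GC content trend removed (adjusted p = 0.0585) and without control ESC replicate 1 (adjusted p = 0.0735). Among the targets, Socs3, which binds gp130 and stops the signal, stood at 160.3 and 162 CPM in the ESC libraries and 14.9 and 16.5 CPM in the EB libraries. That is a 10.4-fold fall with no overlap (log2 change -3.37 ± 0.08, adjusted p = 5.58e-14). The NF-kappa-B cofactor gene Bcl3 (-1.76) and the kinase genes Pim3 (-1.39) and Pim1 (-1.07) fell with it. Osmr, Junb and Gfap were not called. Tfcp2l1, Klf4, Klf5 and Gbx2 are in this list and in the naive list, so the counts of these lists are not independent.

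The promoter of Socs3 is printed because it was the only one of the 15 matched in this list to hold a STAT site in the 250 bases before its start. The motif searched was TTCNNNGAA on both strands, and it occurs in 7.02% of 32841 RefSeq promoters (build GRCm38.p6) of this length. Counted by gene, as list members are, any promoter of 8.13% of 27018 genes holds it. Socs3 lies at chr11:117969367-117969616, minus strand, with the match in capitals, 5′ to 3′ towards the start site.
Socs3: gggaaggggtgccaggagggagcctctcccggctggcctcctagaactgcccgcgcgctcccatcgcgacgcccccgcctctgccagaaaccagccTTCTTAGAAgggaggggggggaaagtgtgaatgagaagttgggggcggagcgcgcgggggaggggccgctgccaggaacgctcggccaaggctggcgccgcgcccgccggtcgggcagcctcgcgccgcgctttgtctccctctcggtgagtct
The other 14 matched members, Tfcp2l1, Klf4 and Stat3 among them, had no match to these letters in this window.

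The visceral endoderm carriers rose together. Of 13 tested genes 12 were higher and none lower, with a median of 1.48; leaving out 1 library in turn gave 11 to 14 higher, as the number tested changed with it. Ttr, the thyroid hormone and retinol carrier transthyretin, stood at 3.15 and 4.17 CPM in the ESC libraries and 38.8 and 50.4 CPM in the EB libraries. Apob, the structural protein of very low density lipoprotein, stood at 15.1 and 15.97 CPM in the ESC libraries and 117 and 139.7 CPM in the EB libraries. Both EB libraries were far above both ESC libraries, with log2 changes of 3.58 ± 0.18 and 3.04 ± 0.10 (adjusted p = 1.7e-10 and 1.96e-12). Afp was at 0.162 and 0.605 CPM in the ESC libraries and 12.3 and 12.5 CPM in the EB libraries, and Apoa1 at 1.46 and 1.27 CPM in the ESC libraries and 19.4 and 22.9 CPM in the EB libraries. The uptake receptors of the visceral endoderm surface rose from a higher base. Cubn (cubilin) went from 201 and 211 CPM to 558 and 591 CPM (log2 change 1.48 ± 0.05, adjusted p = 2.58e-12), Lrp2 (megalin) from 298 and 308 CPM to 729 and 817 CPM (1.35) and Amn, the membrane anchor of cubilin, from 7.60 and 7.68 CPM to 30.8 and 32.3 CPM (2.04). Apom (1.81) and Spink1 (0.98) were higher as well. Rbp4, the plasma retinol carrier, was higher (1.37) but not called in a fit of all 8 libraries (adjusted p = 0.0521).

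Markers of adult liver, which share several of these genes' products, were read beside them. Of 22 such genes 8 passed the filter, 4 higher and none lower, with 2 higher without control ESC replicate 1 or control EB replicate 2. The 20 left after removal of Ass1 and Trf, which ESCs express, summed to 6.87 and 6.90 CPM in ESCs and 10.8 and 36.3 CPM in EBs. Alb, serum albumin, was at 0.324 and 1.81 CPM in the ESC libraries and 1.58 and 13.9 CPM in the EB libraries, so 1 EB library stood apart, and its call was lost with DESeq2 (adjusted p = 0.204), in a fit of all 8 libraries (adjusted p = 0.562) and without control EB replicate 2 (adjusted p = 0.59). The part of the liver markers in the carrier result was not tested.

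The list of primitive endoderm factors, which also holds the adaptor gene Dab2 and the receptor gene Pdgfra, showed a mixed picture. Of 11, 6 were higher, 1 lower and 4 not called, with a median of 0.69. Dab2, an endocytic adaptor needed to sort this layer, stood at 189 and 190.5 CPM in the ESC libraries and 546 and 525 CPM in the EB libraries (log2 change 1.5 ± 0.05, adjusted p = 1.96e-12). Gata4, an early endoderm factor, stood at 36.2 and 38.1 CPM in the ESC libraries and 58.8 and 60.9 CPM in the EB libraries (log2 change 0.69 ± 0.09, adjusted p = 1.62e-05). Foxq1 (1.42) and Hnf4a (0.97), a nuclear receptor of visceral endoderm, rose with them. Gata6, which starts the primitive endoderm programme, was not called, with the higher ESC library next to the lower EB library (15.3 and 20.03 CPM in ESCs and 22.3 and 20.4 CPM in EBs; log2 change 0.27 ± 0.15, adjusted p = 0.19). Sox17 (0.30, adjusted p = 0.213) and Foxa2 (0.59, adjusted p = 0.0591) did not pass either. Pdgfra, the receptor that marks early primitive endoderm, was lower (23.1 and 24.0 CPM in ESCs and 17.2 and 18.1 CPM in EBs; -0.42), a call lost with DESeq2 (adjusted p = 0.0798), with a GC content trend removed (adjusted p = 0.0715), without control ESC replicate 1 (adjusted p = 0.0806) and without control ESC replicate 2 (adjusted p = 0.161).

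Basement membrane genes, made in large amounts by parietal endoderm, moved both ways. Of 12 tested 2 were higher and 5 lower, with a median of 0.03; without control EB replicate 1, 4 were higher. Nid1 (nidogen 1), which links laminin to collagen IV, stood at 199 and 191 CPM in the ESC libraries and 50.7 and 49.6 CPM in the EB libraries (log2 change -1.96 ± 0.07, adjusted p = 2.18e-12). The laminin chain genes Lama1 (-0.99), Lamc1 (-0.68) and Lamb1 (-0.33) were lower. Sparc (830.1 and 835 CPM in ESCs and 879.7 and 898 CPM in EBs) and Col4a1 (904 and 991 CPM in ESCs and 973 and 1055 CPM in EBs) were not called. The proteoglycan gene Srgn, in contrast, rose (67.4 and 66.2 CPM in ESCs and 115 and 122 CPM in EBs; log2 change 0.82 ± 0.07, adjusted p = 1.38e-07).

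Primitive streak genes were at low levels after 3 days, with 3 of the 10 tested higher and 1 lower. Eomes, a T-box factor of the streak and of endoderm, stood at 7.68 and 9.07 CPM in the ESC libraries and 24.2 and 25.9 CPM in the EB libraries (log2 change 1.57 ± 0.16, adjusted p = 7.25e-07). Lhx1, a LIM factor of the organiser, stood at 2.02 and 1.03 CPM in the ESC libraries and 11.5 and 14.0 CPM in the EB libraries (log2 change 3.10 ± 0.30, adjusted p = 4.68e-07). Fgf8, a growth factor of the streak, stood at 0.728 and 0.665 CPM in the ESC libraries and 2.70 and 4.36 CPM in the EB libraries (log2 change 2.32 ± 0.48, adjusted p = 0.00122). The groups did not overlap in these 3. T (Brachyury), the defining factor of the streak, was at 0.485 and 1.03 CPM in the ESC libraries and 0.791 and 0.7 CPM in the EB libraries (log2 change -0.05 ± 0.67, adjusted p = 0.963), and its sign turned without control ESC replicate 2 (0.61) or control EB replicate 2 (0.02). Mixl1, a homeobox gene of nascent mesendoderm, was at 0.243 and 1.03 CPM in the ESC libraries and 1.32 and 2.41 CPM in the EB libraries (adjusted p = 0.09). Gsc, Cer1, Mesp1 and Evx1 did not pass the filter. The gene called lower, Cdx1, had 0 and 1 counts in the EB libraries and 0.809 and 0.786 CPM in ESCs, and was not called with DESeq2 (adjusted p = 0.059) and without control EB replicate 1 (adjusted p = 0.0926). It did not pass the filter without control ESC replicate 1, without control ESC replicate 2 or with a mean of at least 1 CPM asked for. Without control EB replicate 1, 6 members were called higher.

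Genes of the later lineages moved both ways, and the shares called in the mesoderm, definitive endoderm and trophectoderm lists were near those of all genes (18.2% higher and 16.4% lower). In the mesoderm list 3 of 14 were higher and 2 lower, with a median of -0.31. Bmp4, a morphogen of the epiblast and its neighbours, was the clearest fall (33.2 and 37.6 CPM in ESCs and 12.98 and 11.4 CPM in EBs; log2 change -1.53 ± 0.13, adjusted p = 1.57e-07). The blood and vessel factors Tal1 (1.80) and Etv2 (1.5) were higher, but both calls were lost with single libraries left out: Tal1 was not called without control ESC replicate 2 (adjusted p = 0.096), and Etv2 without control ESC replicate 2 (adjusted p = 0.066) and without control EB replicate 2 (adjusted p = 0.102). Without control ESC replicate 2 only 1 mesoderm gene was higher, and without control EB replicate 2, 4 were lower. Kdr, the VEGF receptor of early mesoderm, was not called (1.38 and 1.21 CPM in ESCs and 2.24 and 2.57 CPM in EBs). In the neuroectoderm list, where 10 of 21 genes passed the filter, 2 were higher and 4 lower. Sox11 (22.4 and 24.9 CPM in ESCs and 77.3 and 73.2 CPM in EBs; 1.66) and Nes, which encodes the filament protein nestin (0.98), rose, while the neural factors Sox1 (3.15 and 2.18 CPM in ESCs and 1.52 and 1.17 CPM in EBs; adjusted p = 0.11) and Pax6 (4.04 and 2.84 CPM in ESCs and 3.76 and 4.59 CPM in EBs; adjusted p = 0.533) did not pass, and Sox21 (-1.18) and Tubb3 (-0.40) fell. Of 8 definitive endoderm genes 1 was higher and 1 lower: Cldn6 rose (1.68) and Trh fell by a small amount (-0.28); without control EB replicate 1, 3 were higher, and without control EB replicate 2, 2. Of 8 surface ectoderm and neural crest genes 4 were higher and none lower, with Krt18, a keratin of simple epithelia, at 40.2 and 46.7 CPM in ESCs and 73.3 and 74.8 CPM in EBs (0.76). In trophectoderm, 3 of 13 genes were higher and 2 lower. Tfap2c, also a factor of germ cells, fell from 56.7 and 59.2 CPM to 9.16 and 10.7 CPM (log2 change -2.55 ± 0.12, adjusted p = 8.71e-11), and Tead4, a TEAD factor of the outer cells of the morula, fell by -1.29. Of markers of other tissues, 12 fibroblast genes summed to 23.4 and 23.9 CPM in ESCs and 30.8 and 34.2 CPM in EBs, and 14 blood genes to 6.55 and 7.503 CPM and 7.38 and 9.80 CPM. Of the fibroblast genes 5 passed the filter and 2 were higher, Col1a2 (1.49), not called without control ESC replicate 2 (adjusted p = 0.123), and Thy1 (0.68), not called with DESeq2 (adjusted p = 0.0514), in a fit of all 8 libraries (adjusted p = 0.0823), without control ESC replicate 1 (adjusted p = 0.0545) and without control ESC replicate 2 (adjusted p = 0.106); of the blood genes 3 passed and Cd34 was higher (0.84), not called with DESeq2 (adjusted p = 0.108), in a fit of all 8 libraries (adjusted p = 0.0552), without control ESC replicate 1 (adjusted p = 0.236), without control ESC replicate 2 (adjusted p = 0.0588) and without control EB replicate 2 (adjusted p = 0.0816). The part of these markers in the other results was not tested.

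**Figure D3:**
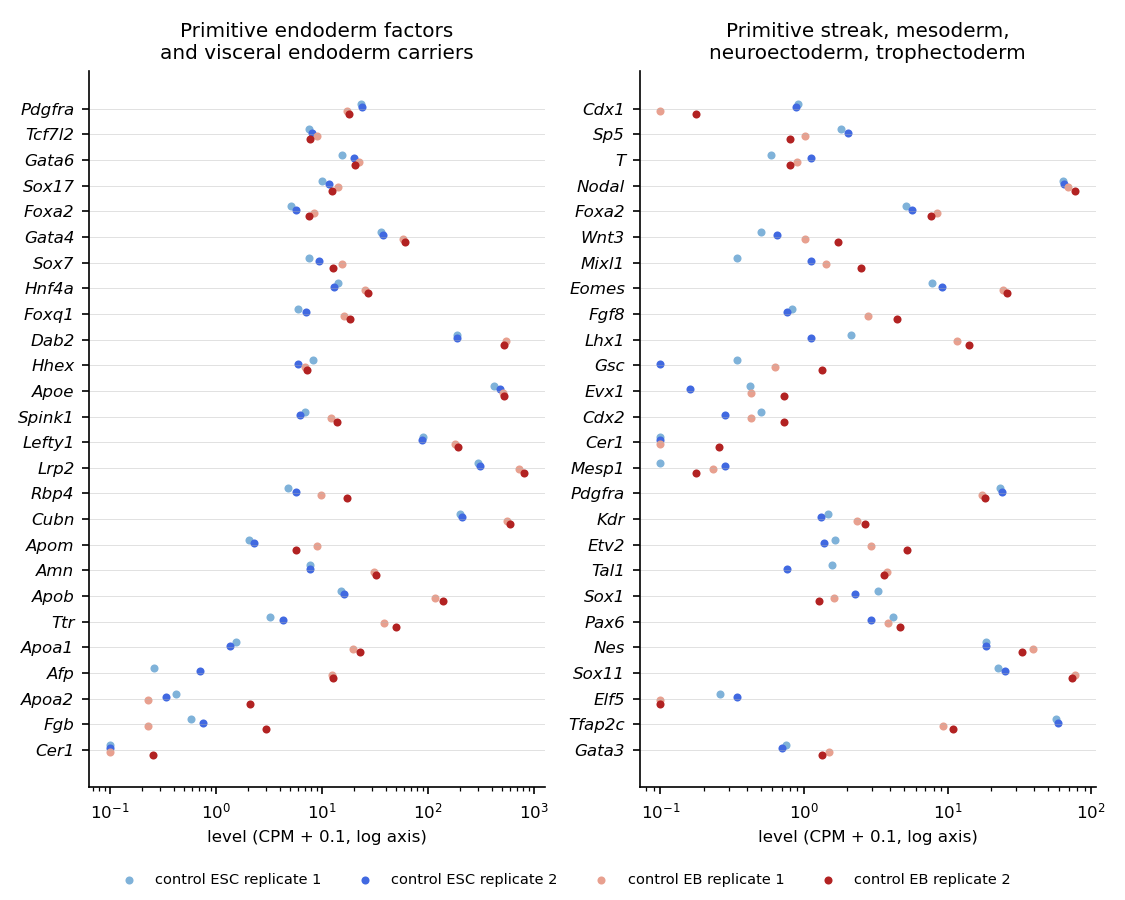
Level in each of the 4 control libraries (CPM plus 0.1, log axis) of endoderm genes on the left and of streak, mesoderm, neural and trophectoderm genes on the right. Afp, Apoa1, Ttr and Apob are clearly separated between ESC (blue) and EB (red) libraries, while T and Pax6 overlap.

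Genes of 2-cell-like cells and of primordial germ cells were lower. The genes of 2-cell-like cells, a small share of serum-grown ESCs, were lower in 14 of 20 and higher in none, with a median of -1.57; leaving out 1 library in turn gave 11 to 15 lower. Zscan4a went from 35.99 and 38.7 CPM to 6.52 and 8.87 CPM (log2 change -2.29 ± 0.15, adjusted p = 5.26e-09), and Zscan4c, Zscan4d, Zscan4e, Zscan4b and Zscan4f changed by -2.11, -1.86, -2.23, -2.46 and -1.65. These are near-identical copies whose reads can be split or shared, as are the Usp17l, Tcstv and Tdpoz genes of the list, so these genes are not independent. Of 9 genes of primordial germ cells 8 were lower, with a median of -1.38. Kit, the receptor for stem cell factor, stood at 147 and 159 CPM in the ESC libraries and 38.5 and 42.9 CPM in the EB libraries (log2 change -1.92 ± 0.08, adjusted p = 1.4e-11). Nanos3 (-2.14), Itgb3 (-1.38), Dppa3 (-1.23) and Prdm1 (-0.59) fell with Tfap2c (-2.55) and Prdm14 (-1.41). Dppa3 and Prdm14 are counted in the naive list too. Germline genes that DNA methylation keeps silent did not share a direction: 6 of 24 were higher and 5 lower, beside 18.2% and 16.4% of all genes. Tdrd1, of the piRNA pathway, rose from 1.62 and 1.75 CPM to 6.46 and 6.69 CPM (1.95), Piwil2, from the same pathway, fell by -0.93, and Dazl was not called (26.5 and 27.5 CPM in ESCs and 20.3 and 23.4 CPM in EBs). Without control ESC replicate 1 the number lower was 2, and without control ESC replicate 2 it was 3.

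The de novo DNA methyltransferase genes rose, and the demethylase genes Tet1 and Tet2 fell. Of 15 genes of DNA methylation 6 were higher and 3 lower, with a median of 0.20. Per length, in mean CPM per kilobase of transcript model, Dnmt3b rose from 37.9 to 257.5 and Dnmt3a from 7.87 to 24.7, while the maintenance enzyme Dnmt1 was at 54.9 and 50.3 and the cofactor Dnmt3l at 119.6 and 111.4. Tet1 fell from 36.2 to 17.9 and Tet2 from 10.4 to 2.84, while Tet3 was at 1.16 and 1.46. On this scale Dnmt3b passed Dnmt1 and Dnmt3l in EBs, from below both in ESCs. The changes of Dnmt3a (log2 change 1.65 ± 0.06, adjusted p = 2.58e-12), Tet1 (log2 change -1.01 ± 0.05, adjusted p = 1.33e-10) and Tet2 (log2 change -1.86 ± 0.09, adjusted p = 8.67e-11) passed the test, and those of Dnmt1 (adjusted p = 0.0533), Dnmt3l (adjusted p = 0.121) and Tet3 (adjusted p = 0.101) did not. Zfp57, which guards imprints, fell from 367 and 352 CPM to 231 and 209.5 CPM (-0.71), and Mbd3, a subunit of the NuRD complex, rose from 79.2 and 78.5 CPM to 144 and 155 CPM (0.92). The number of lower genes in the list was 6 when libraries were scaled by their totals and 5 without control EB replicate 2.

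Polycomb genes moved both ways, with 9 of 30 higher and 8 lower and a median of 0.10. Of the repressive complex 2 that methylates H3K27, Suz12 (-0.34), Eed (-0.66), its partner Mtf2 (-0.64) and Phf19 (12.6 and 10.0 CPM in ESCs and 3.76 and 3.19 CPM in EBs; -1.69) fell. Of complex 1 and its variants, Bcor (log2 change 0.65 ± 0.07, adjusted p = 3.5e-06) and Kdm2b (0.50) rose and the ubiquitin ligase gene Rnf2 (-0.44) fell. Of these only Phf19 changed by over 2-fold. Among 19 heterochromatin factors 8 were higher and 4 lower. Suv39h1, which methylates H3K9, rose (20.9 and 21.4 CPM in ESCs and 47.6 and 47.1 CPM in EBs; log2 change 1.16 ± 0.11, adjusted p = 2.46e-07), and the HP1 genes Cbx5 (-0.59) and Cbx1 (0.43) moved apart. Scaled by library totals, 7 of the heterochromatin factors were lower.

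Of 22 WNT pathway genes 8 were higher, 3 lower and 11 not called, with a median of 0.39. Among ligands, Wnt8a went from 0.647 and 0.786 CPM to 8.90 and 10.5 CPM (log2 change 3.72 ± 0.33, adjusted p = 1.53e-07). Among the TCF factors at the end of the pathway, Lef1 went from 8.73 and 10.4 CPM to 55.9 and 50.6 CPM (log2 change 2.46 ± 0.13, adjusted p = 2.41e-10), the repressor gene Tcf7l1 from 18.0 and 15.8 CPM to 52.98 and 59.9 CPM (1.75) and Tcf7 from 94.7 and 88.0 CPM to 182 and 169.5 CPM (0.95). Axin2, the standard readout of WNT activity, rose (19.2 and 18.4 CPM in ESCs and 38.2 and 34.2 CPM in EBs; log2 change 0.95 ± 0.12, adjusted p = 1.03e-05), and the receptor gene Fzd7 rose (0.72). The receptor gene Fzd5 (-1.17) and the secreted inhibitor gene Sfrp1 (-1.06) fell. Sp5 (1.70 and 1.94 CPM in ESCs and 0.923 and 0.7 CPM in EBs) and Ctnnb1 (697 and 709 CPM in ESCs and 715 and 789 CPM in EBs) were not called.

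NODAL and activin genes moved both ways, 5 of 17 higher and 5 lower. Nodal itself was not called (64.1 and 64.8 CPM in ESCs and 69.1 and 77.2 CPM in EBs; adjusted p = 0.101). Its inhibitor gene Lefty1 rose (89.2 and 88.0 CPM in ESCs and 181 and 191 CPM in EBs; log2 change 1.07 ± 0.06, adjusted p = 1.25e-09), while the neighbouring Lefty2 was not called (422 and 405 CPM in ESCs and 401 and 387 CPM in EBs). The pathway's DNA-binding partner Foxh1 rose (1.18). Inhbb stood at 11.7 and 10.1 CPM in the ESC libraries and 1.25 and 0.778 CPM in the EB libraries (log2 change -3.39 ± 0.30, adjusted p = 2.23e-07), and Gdf3 (-0.53) and the convertase gene Pcsk6 (-0.73) fell. Scaled by library totals, 8 were lower.

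In the list of bone morphogenetic protein (BMP) genes 3 of 17 were higher and 2 lower, no more than the shares of all genes (18.2% and 16.4%). Id3 (9.95 and 11.1 CPM in ESCs and 32.2 and 27.6 CPM in EBs; log2 change 1.5 ± 0.14, adjusted p = 5.24e-07), Id2 (0.97) and Msx1 (0.89 and 1.03 CPM in ESCs and 4.02 and 4.36 CPM in EBs; 2.11), 3 direct targets, rose. Id1 (43.1 and 45.3 CPM in ESCs and 50.5 and 40.8 CPM in EBs) and Smad7 (54.6 and 57.2 CPM in ESCs and 53.2 and 46.8 CPM in EBs) were not called, and the ligand gene Bmp4 fell, as given above. Without control EB replicate 1, 5 genes of this list were higher, and without either ESC replicate 1 was lower.

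Several FGF ligands rose, and feedback genes of the ERK pathway moved both ways. Of 24 genes 9 were higher and 4 lower. Beside Fgf5, Fgf15 (19.2 and 19.4 CPM in ESCs and 50.2 and 44.5 CPM in EBs; 1.30) and Fgf8 (2.32) were higher. Of the feedback inhibitors, Spry4 fell from 181 and 181 CPM to 85.1 and 74.8 CPM (log2 change -1.18 ± 0.07, adjusted p = 1.29e-09) and Spred1 fell by -1.10, whereas Spry1 (1.20) and the phosphatase gene Dusp4 (27.8 and 22.9 CPM in ESCs and 71.6 and 75.7 CPM in EBs; 1.55) rose. Dusp6, a much used readout of ERK activity, was not called (56.0 and 58.8 CPM in ESCs and 57.6 and 60.8 CPM in EBs), and neither was Spry2 (73.7 and 67.3 CPM in ESCs and 74.7 and 65.0 CPM in EBs).

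Immediate early genes, which cells switch on within minutes of a stimulus or of handling, were higher in 14 of 19 and lower in 2, with a median of 0.56. Fosb stood at 0.809 and 0.544 CPM in the ESC libraries and 17.4 and 15.7 CPM in the EB libraries (log2 change 4.63 ± 0.28, adjusted p = 1.64e-09). Atf3, also a stress gene, stood at 4.53 and 4.17 CPM in the ESC libraries and 15.8 and 20.4 CPM in the EB libraries (log2 change 2.06 ± 0.20, adjusted p = 6.66e-07). Jun stood at 7.44 and 9.02 CPM in the ESC libraries and 25.6 and 30.7 CPM in the EB libraries (log2 change 1.76 ± 0.16, adjusted p = 2.57e-07). In all 3 the EB libraries lay above the ESC libraries. Ier5 (1.95), Fos (1.90), Egr1 (0.77) and Klf6 (0.58) rose as well, and Nr4a1 fell (-0.60). Leaving out 1 library in turn gave 10 to 13 higher. The time between harvest and lysis is not in the labels, and its part in these values was not tested. Of 19 YAP and SRF targets 7 were higher and 3 lower: the contractile genes Cnn1 (1.83) and Myl9 (1.67) rose, and Vim (-0.92) and Tead1 (208 and 207 CPM in ESCs and 87.4 and 86.1 CPM in EBs; -1.26) fell. Without control EB replicate 2, 6 of that list were lower, and scaled by library totals 5.

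In the list of interferon response and antigen presentation genes, immunoproteasome, peptide transporter and class I genes rose, while B2m, Stat2 and Irf9 were not called. Of 19 tested, 11 were higher and 3 lower, with a median of 0.81. Psmb8 (chr17:34197721-34201454, plus strand) stood at 0.809 and 1.15 CPM in the ESC libraries and 20.6 and 17.0 CPM in the EB libraries (log2 change 4.22 ± 0.26, adjusted p = 1.75e-09). Oasl2 stood at 2.27 and 1.45 CPM in the ESC libraries and 30.7 and 28.8 CPM in the EB libraries (log2 change 4.03 ± 0.21, adjusted p = 2.28e-10). Irf1, a transcription factor of MHC class I genes, stood at 44.2 and 45.8 CPM in the ESC libraries and 186 and 177 CPM in the EB libraries (log2 change 2.01 ± 0.07, adjusted p = 2.29e-12). No ESC library reached an EB library in these 3. The peptide transporter genes Tap1 (1.27) and Tap2 (2.55), the immunoproteasome gene Psmb9 (1.55), the class I genes H2-K1 (0.99) and H2-D1 (0.81) and the tetherin gene Bst2 (0.76) rose too. Stat2 (62.4 and 62.3 CPM in ESCs and 61.9 and 60.9 CPM in EBs) and Irf9 (15.6 and 14.5 CPM in ESCs and 14.7 and 11.7 CPM in EBs), which pass the type I interferon signal to the genome, were not called, and neither was B2m, the light chain of class I molecules (23.5 and 24.1 CPM in ESCs and 27.4 and 28.7 CPM in EBs). Ifitm1 (106 and 109.7 CPM in ESCs and 45.1 and 51.4 CPM in EBs; -1.16) and Ifitm2 (-0.64) fell. Isg15, a ubiquitin-like protein gene and a classic interferon target, was below 2 CPM in every library (0.404 and 0.242 CPM in ESCs and 1.71 and 1.40 CPM in EBs). It was called higher (log2 change 2.28 ± 0.68, adjusted p = 0.0154) but was not called with DESeq2 (adjusted p = 0.0508), without control ESC replicate 1 (adjusted p = 0.0909), without control ESC replicate 2 (adjusted p = 0.227) and without control EB replicate 1 (adjusted p = 0.0792).

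An interferon-stimulated response element, searched as GAAANNGAAA on both strands, lies in 2.98% of all 32841 promoters. Counted by gene, as list members are, any promoter of 3.46% of 27018 genes holds it. In this list 7 of the 18 matched genes had it, with 3 of the 10 matched higher genes and 1 of the 3 lower. The promoters of Bst2 and Isg15 are printed to show such matches in a gene that rose and in one that was below 2 CPM in every library. Bst2 is at chr8:71537473-71537722, minus strand and Isg15 at chr4:156200819-156201068, minus strand (GRCm38.p6, RefSeq), with the overlapping matches in capitals.
Bst2: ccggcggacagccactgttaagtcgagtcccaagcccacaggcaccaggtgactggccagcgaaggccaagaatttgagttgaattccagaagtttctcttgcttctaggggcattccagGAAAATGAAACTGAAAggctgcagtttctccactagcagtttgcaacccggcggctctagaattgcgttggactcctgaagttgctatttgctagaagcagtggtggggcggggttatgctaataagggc
Isg15: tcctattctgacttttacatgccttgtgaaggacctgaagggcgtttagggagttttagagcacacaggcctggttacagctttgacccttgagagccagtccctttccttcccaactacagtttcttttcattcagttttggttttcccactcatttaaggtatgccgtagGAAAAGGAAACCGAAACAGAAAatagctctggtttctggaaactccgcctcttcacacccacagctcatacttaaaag
Psmb8 and Oasl2, with the largest rises of the list, had no match in this window.

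Lysosomal genes were higher in 17 of 27 and lower in 4, with a median of 0.29, so most changes were small; leaving out 1 library in turn gave 13 to 18 higher. The cathepsin genes, which encode lysosomal proteases, led. Ctsc stood at 39.3 and 41.1 CPM in the ESC libraries and 127 and 133 CPM in the EB libraries (log2 change 1.69 ± 0.08, adjusted p = 3.96e-11). Ctsh stood at 37.0 and 36.9 CPM in the ESC libraries and 99.4 and 109 CPM in the EB libraries (log2 change 1.5 ± 0.08, adjusted p = 5.08e-10). Ctsl stood at 361 and 352 CPM in the ESC libraries and 680.3 and 706 CPM in the EB libraries (log2 change 0.96 ± 0.05, adjusted p = 1.24e-10). All 3 were separated between groups. Lamp1, the main lysosomal membrane protein (432 and 429.7 CPM in ESCs and 514 and 534 CPM in EBs; 0.28), and Ctsd (0.44) rose by less. Tfeb, the master regulator of lysosomal genes, fell from 23.5 and 18.9 CPM to 7.05 and 6.15 CPM (log2 change -1.67 ± 0.18, adjusted p = 1.7e-06), with Scarb2 (-0.78).

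The site that TFEB and its relatives bind, searched as TCACGTG on both strands, lies in 3.13% of all promoters. Counted by gene, as list members are, any promoter of 3.58% of 27018 genes holds it. It was in 5 of the 21 matched lysosomal genes. Of those, 2 of the 12 matched higher genes and 1 of the 3 lower ones had it. The 2 higher genes were Lamp1, at chr8:13158911-13159160, plus strand, and Ctsd, at chr7:142387828-142388077, minus strand, printed with the matches in capitals (GRCm38.p6, RefSeq).
Lamp1: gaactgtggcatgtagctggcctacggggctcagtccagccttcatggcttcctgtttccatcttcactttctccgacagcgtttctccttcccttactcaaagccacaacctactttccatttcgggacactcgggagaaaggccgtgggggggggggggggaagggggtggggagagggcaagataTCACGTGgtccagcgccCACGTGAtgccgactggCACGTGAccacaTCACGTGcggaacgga
Ctsd: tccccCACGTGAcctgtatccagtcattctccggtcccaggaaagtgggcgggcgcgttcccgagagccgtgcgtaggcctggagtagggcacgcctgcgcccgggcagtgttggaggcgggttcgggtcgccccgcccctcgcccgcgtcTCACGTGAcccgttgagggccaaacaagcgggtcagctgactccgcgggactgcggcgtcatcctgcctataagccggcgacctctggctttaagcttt
Lamp1 held 4 matches and Ctsd 3, of which a pair overlaps.

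Genes of glycolysis and of the response to hypoxia moved both ways. Of 32 hypoxia and glycolysis genes 17 were higher and 8 lower, with a median of 0.21. The lactate exporter gene Slc16a3 (MCT4) stood at 207 and 216 CPM in the ESC libraries and 443 and 412 CPM in the EB libraries (log2 change 1.01 ± 0.05, adjusted p = 3.81e-10). Ldha (0.45), Aldoa (0.36) and Pkm (0.32) rose. Hexokinase 2 (Hk2; 384 and 395 CPM in ESCs and 208 and 209 CPM in EBs; log2 change -0.90 ± 0.05, adjusted p = 6.41e-10), phosphofructokinase Pfkp (-0.75) and the glucose transporter gene Slc2a3 (-0.50) fell, with Vegfa (-0.70). Of 37 nuclear subunits of oxidative phosphorylation 5 were higher and 1 lower, smaller shares than among all genes, with a median of -0.01. Without control ESC replicate 1 or replicate 2, 3 of them were higher, and without control EB replicate 1, 4 were lower. Ribosomal protein genes were higher in 24 of 34 and lower in none, but by a median of only 0.17; leaving out 1 library gave 16 to 25 higher, and Rps6 (0.15) turned sign with a GC content trend removed and was not called scaled by library totals (adjusted p = 0.0899), with a GC content trend removed (adjusted p = 0.433), in a fit of all 8 libraries (adjusted p = 0.269), without control ESC replicate 1 (adjusted p = 0.0879) and without control ESC replicate 2 (adjusted p = 0.0661). In the cholesterol list 8 of 22 genes were higher and none lower, 5 without control ESC replicate 2. In the amino acid stress list 5 of 26 genes were higher and 11 lower, 3 and 7 without control ESC replicate 2. Asparagine synthetase, Asns, fell from 238 and 231 CPM to 102 and 88.3 CPM (log2 change -1.30 ± 0.07, adjusted p = 3.14e-10), with Psat1 (-0.56) and their regulator Atf4 (-0.40), whereas Sesn2 rose (0.78).

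Genes of cell adhesion moved both ways. Of 30 adhesion genes 13 were higher and 10 lower. Cdh1 (E-cadherin) stood at 515 and 538 CPM in the ESC libraries and 831 and 871 CPM in the EB libraries (log2 change 0.69 ± 0.05, adjusted p = 4.98e-09). The epithelial regulators Grhl2 (44.2 and 41.2 CPM in ESCs and 112 and 112 CPM in EBs; log2 change 1.39 ± 0.08, adjusted p = 5.36e-10) and Esrp1 (1.21) and the tight junction genes Cldn6 (54.6 and 58.8 CPM in ESCs and 174 and 190 CPM in EBs; 1.68) and Cldn7 (1.47) rose. Zeb1, a repressor of E-cadherin, fell from 16.7 and 14.8 CPM to 4.88 and 5.06 CPM (log2 change -1.66 ± 0.19, adjusted p = 4.13e-06), with Vim (-0.92) and Icam1 (-1.06). N-cadherin, Cdh2, rose at the same time (4.29 and 6.59 CPM in ESCs and 11.1 and 12.99 CPM in EBs; 1.13). In the extracellular matrix list 4 of 23 were higher and 10 lower, beside 18.2% and 16.4% of all genes. Fibronectin, Fn1 (-0.46), perlecan, Hspg2 (-0.90), and osteopontin, Spp1 (184 and 202 CPM in ESCs and 56.1 and 64.7 CPM in EBs; -1.68), fell, and Col18a1 rose (0.69).

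**Figure D4:**
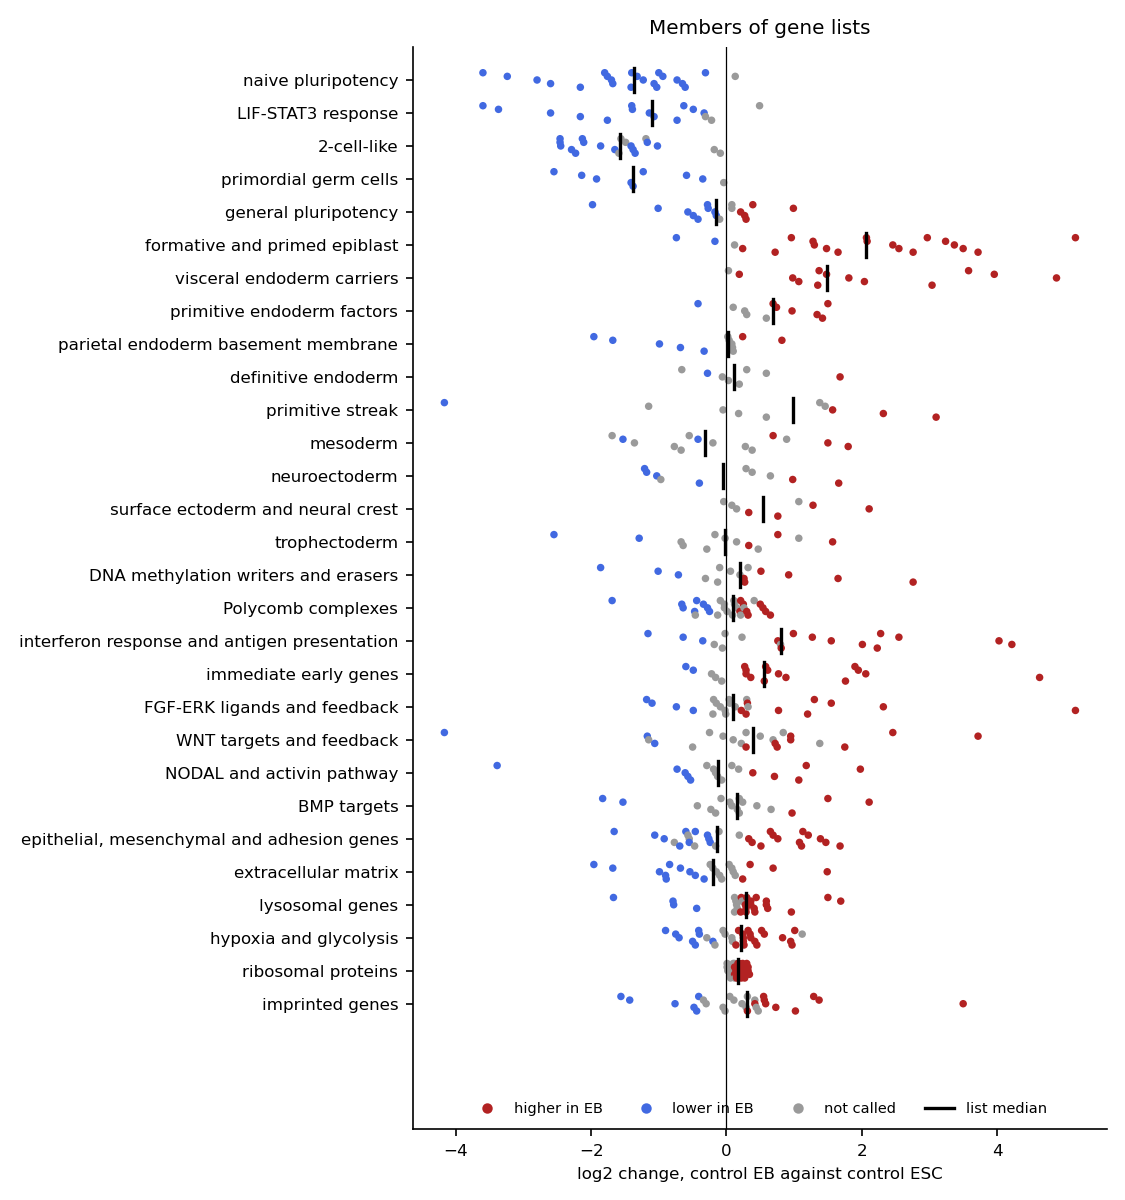
Log2 change of each tested member of 29 gene lists in control EBs against control ESCs, with the list median as a black bar and colours for the call. The naive, LIF, 2-cell-like and germ cell lists lie left of 0 and the formative and visceral endoderm lists right of it, while most other lists spread around the all-gene median of 0.01.

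Imprinted genes were higher in 10 of 28 and lower in 6, with a median of 0.30. Magel2 stood at 1.94 and 1.81 CPM in the ESC libraries and 18.1 and 24.6 CPM in the EB libraries (log2 change 3.50 ± 0.23, adjusted p = 5.26e-09). Its neighbour in the same imprinted cluster, Snrpn, rose (84.5 and 84.0 CPM in ESCs and 166 and 176 CPM in EBs; 1.02). H19, a noncoding RNA expressed from the maternal copy, stood at 156 and 166 CPM in the ESC libraries and 415 and 420.2 CPM in the EB libraries (log2 change 1.37 ± 0.05, adjusted p = 7.5e-12). Both alleles are counted together here, so the imprint itself was not measured. Plagl1 (-1.56), Zim1 (-1.43) and Grb10 (-0.76) fell, and Peg10 (834 and 893 CPM in ESCs and 841 and 829 CPM in EBs) and Rian (781 and 777 CPM in ESCs and 779 and 830.1 CPM in EBs) were not called.

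Changes of cell cycle and p53 genes lay between -0.70 and 0.75 in the G1 list and between -1.06 and 0.91 in the p53 list. Against a 1.5-fold change 1 gene of each of these lists passed. The counts called moved with single libraries. Of 20 proliferation genes 6 were higher and 4 lower, between -0.30 and 0.35; without control ESC replicate 1 these were 3 and 2. Of 20 G1 genes 5 were higher and 7 lower; 2 were higher without control ESC replicate 1, 3 higher without control EB replicate 1, and 3 lower without control ESC replicate 2. Of 21 p53 targets 6 were higher and 6 lower, with 3 lower without control ESC replicate 1, and 3 in each direction without control ESC replicate 2. Mki67 fell by -0.30, and the replication gene Mcm2 rose (0.35). Cyclin D1, Ccnd1, stood at 92.9 and 89.1 CPM in the ESC libraries and 155 and 150.5 CPM in the EB libraries (log2 change 0.75 ± 0.06, adjusted p = 1.45e-07), and Cdk6 fell (-0.65). Cdkn1a (p21) was not called (50.3 and 52.5 CPM in ESCs and 47.0 and 51.4 CPM in EBs), nor Mdm2 (189 and 198 CPM in ESCs and 178 and 185 CPM in EBs), both p53 targets. Of 13 genes encoded in mitochondria 3 were higher and 1 lower, with 5 lower without control EB replicate 1, 6 higher and 3 lower without control EB replicate 2, and 4 lower without control ESC replicate 2. Of 6 Y-linked genes 1 was lower. The shares of all genes, beside which the counts of this paragraph stand, were 18.2% higher and 16.4% lower.

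Of 15 retinoid genes 4 were higher and 2 lower, beside 18.2% and 16.4% of all genes, and 1 was lower without control ESC replicate 2. Cyp26a1, which degrades retinoic acid and is induced by it, stood at 12.8 and 11.5 CPM in the ESC libraries and 42.0 and 43.7 CPM in the EB libraries (log2 change 1.83 ± 0.12, adjusted p = 5.94e-09), and Rdh10, which makes its precursor, rose from 8.98 and 8.65 CPM to 25.2 and 25.4 CPM (1.52). The largest change of the list was the fall of Aldh1a2 (log2 change -2.66, adjusted p = 0.00239 by edgeR). Without control ESC replicate 2 the change of Aldh1a2 was -2.46. Of 20 HOX genes 4 passed the filter, and their changes lay between -0.69 and 1.35. With all 4 control libraries in the fit, none was called by edgeR or DESeq2. In the Lin28 axis, which holds back the let-7 microRNAs, 4 of 13 genes were higher and 6 lower, with a median of -0.17. DESeq2 called 4 lower. Mycn (0.54) and the chromatin protein gene Hmga1 (178 and 185 CPM in ESCs and 335 and 344 CPM in EBs, log2 change 0.90) rose. The lowest change of the list was -0.40. Trim71 went from 38.9 mean CPM per kilobase of transcript model in ESCs to 32.0 in EBs.

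A fit of all 8 libraries, whose spread includes that of the knockout replicates, called fewer members in many lists. The number higher was then 8 of the immediate early genes, 9 of the lysosomal and 9 of the ribosomal protein genes, 10 of the hypoxia and glycolysis genes, 3 of the Polycomb genes, 4 of the heterochromatin factors and 4 of the cholesterol genes. It was 2 in each of the core pluripotency, amino acid stress, proliferation, matrix and retinoid lists, 3 of the G1 genes, and 1 of the oxidative phosphorylation and 1 of the liver genes. The number lower was 7 of the amino acid stress, 6 of the adhesion, 5 of the hypoxia and glycolysis, 3 of the germline, 3 of the Lin28 axis, 1 of the p53 and 1 of the proliferation genes. With a GC content trend removed, 11 proliferation genes were higher and 1 lower, 2 p53 targets lower, 3 amino acid stress genes higher and 1 ribosomal protein gene lower. DESeq2 called 3 germline genes lower, and 3 G1 and 2 liver genes higher.

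The 4 knockout libraries cover the same step, from ESCs to day 3 EBs, and share no library with the control comparison. In a fit of all 8 libraries, 1410 of 17125 genes were higher in knockout EBs (8.23%) and 1217 lower (7.11%). That fit called 1472 control rises (8.6%) and 1649 control falls (9.63%), so both genotypes were counted in 1 model. Rises called in both genotypes numbered 752, which is 51.1% of the control and 53.3% of the knockout list; for falls it was 665, or 40.3% and 54.6%. Of the rises and falls called in the 4 control libraries alone, 89.9% and 85.2% had the same sign in knockout cells. Of the 15 largest control rises named above 14 were called the same way in knockout cells, and the difference between genotypes was called in 1. These rises include the carrier genes Afp, Apoa1 and Ttr. The part in their knockout values of the adult liver transcripts in knockout EB replicate 1, given below, was not tested. Of the 15 largest falls 14 were called the same way, with a called difference in 8. The rises and falls were both picked by their control change, which is subtracted in the difference. The counts of called differences are therefore not independent of that choice. The knockout ESC replicates differed from each other far more than the control replicates did, as given above. Their difference correlated with GC content at 0.725. In control ESCs, control EBs and knockout EBs that correlation was -0.061, -0.06 and 0.031. The genotype contrast with a GC content trend removed is given below.

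The change itself differed between genotypes in 237 of 17125 genes (1.38%), with 127 positive (0.742%) and 110 negative (0.642%), by the contrast of both changes in 1 edgeR fit over all 8 libraries. Among naive genes the difference was called in 9 of 22, each with a positive difference (knockout minus control). The median change of the list was -0.50 in knockout cells, and the median difference 0.96. Tfcp2l1 was at 285 and 320 CPM in the knockout ESC libraries and 66.3 and 67.7 CPM in the knockout EB libraries, a change of -2.17 ± 0.10 in place of -3.60 (difference 1.43 ± 0.13, adjusted p = 0.00245). Dppa3 (Stella), an oocyte and germ cell gene, was at 9.55 and 13.8 CPM in the knockout ESC libraries and 17.6 and 19.1 CPM in the knockout EB libraries, so it fell in control cells and had a change of 0.65 ± 0.20 in knockout cells (difference 1.89 ± 0.27, adjusted p = 0.0129). Nanog differed by 0.59 ± 0.14 and was not called (adjusted p = 0.0908).

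Of the 21 formative genes 18 were higher in knockout cells and 17 in control cells in the fit of all 8 libraries, with a knockout median of 1.57. The difference was called in 4 (Car4, Dnmt3b, Fgf5 and Sall2), each negative, while the median difference of the list was 0.16. Fgf5 was at 3.06 and 2.69 CPM in the knockout ESC libraries and 32.2 and 31.0 CPM in the knockout EB libraries, against 57.7 and 63.8 CPM in the control EBs (difference -1.70 ± 0.25, adjusted p = 0.013). Dnmt3b was at 275 and 252 CPM in the knockout ESC libraries and 782 and 786 CPM in the knockout EB libraries (difference -1.19 ± 0.12, adjusted p = 0.0036). For both genes the knockout ESC libraries lay above the control ESC libraries and the knockout EB libraries below the control EB libraries. These levels are on the different scalings named above and were not tested between genotypes. The endoderm receptor genes Cubn (-1.14) and Lrp2 (-0.98) and the adaptor gene Dab2 (-1.01) had negative differences too. For the carrier genes Afp, Apoa1 and Ttr the size of the difference is not given. They are counted among the largest rises above, and their changes in both genotypes are plotted below. The 20 adult liver markers summed to 2325 CPM in knockout EB replicate 1 and to 24.3 CPM in replicate 2. The part of these liver transcripts in the knockout values of carrier and receptor genes was not tested.

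These differences rest on few libraries. No gene was called without control ESC replicate 1, control ESC replicate 2 or control EB replicate 2 by edgeR, where 1566, 1391 and 2137 genes had an unadjusted p under 0.05. Without control EB replicate 1, 22 genes were called, without knockout EB replicate 1, 20, and without knockout EB replicate 2, 104. Leaving out knockout ESC replicate 1 or 2 gave 2040 and 981. DESeq2 on all libraries called 392.

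**Figure D5:**
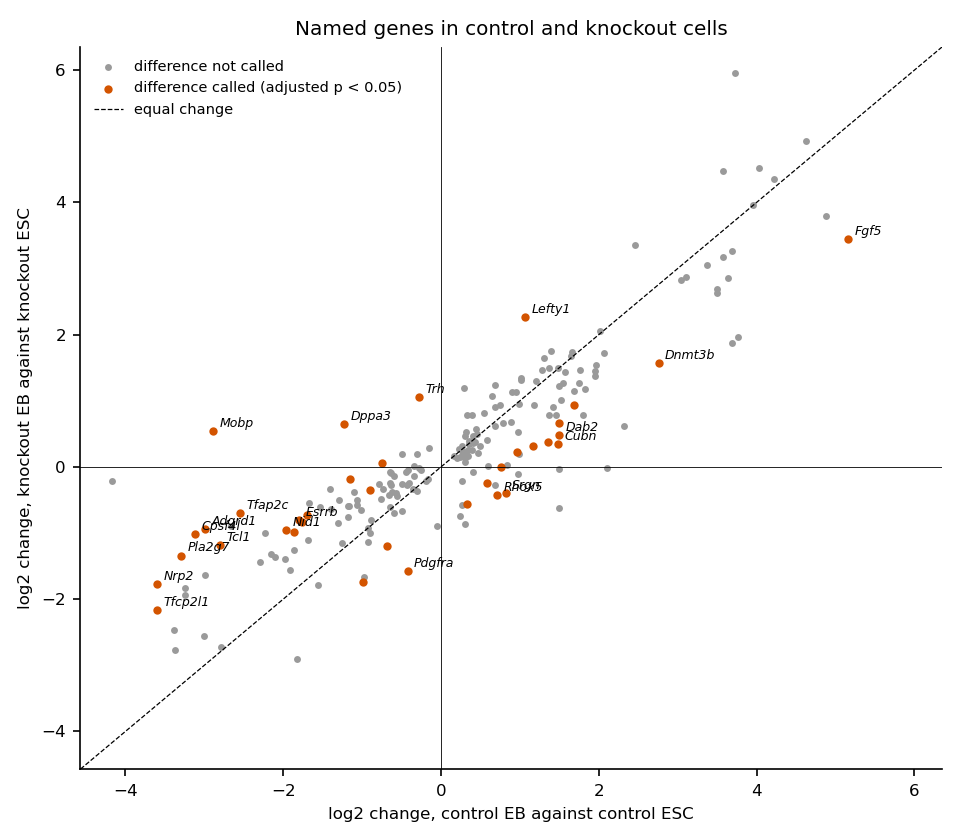
Log2 change of 206 named genes in control cells (horizontal) and knockout cells (vertical); the dashed line marks equal change, and orange points are the 36 genes whose difference was called. Alb, Apoa4 and Serpina3k, 3 adult liver genes, are left out, while the carrier genes Afp, Apoa1 and Ttr are plotted. Fgf5 and Dnmt3b lie below the line, and the falling naive gene Tfcp2l1 lies above it.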

How the data were processed

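RNA was measured by sequencing of polyadenylated RNA in 8 mouse R1 libraries, of which the 4 control libraries (2 ESC, 2 EB on day 3) enter the main comparison. The authors deposited whole-number read counts per gene for 55401 genes; HISAT2, featureCounts, DESeq2 and the build mm10 are named in the submitters' processing notes, while the annotation release, multimapping rule and strand setting are named in none of the labels. With the strand setting unknown, a gene and its antisense partner cannot be told apart. Symbols were found for 55141 gene identifiers, and gene positions are those of the matching mm10 annotation.

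The deposited counts of the 4 control libraries were tested with edgeR 4.0.16 in R 4.3.3 (quasi-likelihood test, TMM scaling, filterByExpr, Benjamini-Hochberg adjustment over the 16111 genes kept; adjusted p under 0.05). The common biological coefficient of variation was 0.07. The standard error is the size of the log2 change divided by the root of the F statistic. Genotypes were compared by a contrast over all 8 libraries (17125 genes). The test was tried on simulated counts with known changes. DESeq2 1.42.0, other scalings, other filters, a GC content trend, a replicate block and leaving out each library were the alternatives.

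Named genes were the 15 largest rises and 15 largest falls among called genes with a gene name, no overlap and at least 5 CPM in whichever group was higher; the 6 largest rises and falls in mean CPM; up to 4 called members with the smallest adjusted p and up to 2 against the majority in each of 46 gene lists; and 19 genes chosen by name. Some genes are not reported here singly but stay in the list counts. Other list members are given as values. The members, lists and rules were chosen with earlier results of these data known. Promoter sequences are RefSeq's (GRCm38.p6), 250 bases before each start. Same-numbered control libraries did not deviate together (correlation -0.115), so no pairing was used.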

Additional observations from a re-analysis of the deposited data

Results flagged for a closer look

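In 36 of the named genes the EB against ESC change differed between knockout and control cells by the contrast over all 8 libraries (edgeR, adjusted p under 0.05); each value is the log2 change in knockout cells minus that in control cells. In genes that fell in control cells the differences were Mobp 3.42, Cpsf4l 2.11, Adgrd1 2.06, Pla2g7 1.96, Dppa3 1.89, Nrp2 1.85, Tfap2c 1.85, Tcl1 1.63, Tfcp2l1 1.43, Trh 1.33, Nid1 1.01, Esrrb 1.00, Jam2 0.99, Ifitm1 0.98, Zfp42 0.94, Tet2 0.88, Pfkp 0.82 and Hk2 0.56. Of the falling genes Pdgfra (-1.15), Lama1 (-0.74) and Lamc1 (-0.50) had a negative difference. Among the genes that rose in control cells Lefty1 had a positive difference, 1.21. The other rising genes had negative ones: Fgf5 -1.70, Srgn -1.22, Dnmt3b -1.19, Cubn -1.14, Rhox5 -1.14, Dab2 -1.01, Lrp2 -0.98, Krt8 -0.89, Suv39h1 -0.84, Ctsh -0.83, Peg3 -0.81, Ctsc -0.76, Krt18 -0.76 and Ctsl -0.73. The spread between the knockout ESC replicates, and the calls lost without single control libraries, apply to all of them, and their part was not tested further. Many of these genes were picked by their control result, which also enters the difference. The signs of the differences are therefore not independent of that choice.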

How the results depend on the processing

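The control comparison counted 2932 higher and 2639 lower genes. Against a 1.5-fold change 557 and 526 passed, with 119 of the 202 called named genes; in a fit of all 8 libraries 1472 and 1649 were called. Leaving out each library gave 1944 to 3091 higher and 1619 to 3147 lower genes, and 186 to 199 named genes. DESeq2 called 2175 and 1886, all of them among the edgeR calls. The replicate block gave 2724 higher, 2467 lower and 201 named genes, and the genotype contrast 173; same-numbered libraries did not pair, and a crossed pairing gave 3230 and 2978. The genotype difference of 237 genes became 704 with no low-count filter, 392 with DESeq2 and 684 with a GC content trend removed, the last chosen after seeing the data; leaving out each library gave 0 to 2040. The change of T, not called, turned from -0.05 to 0.02 with the replicate block, 0.00 with the crossed pairing, and between -0.47 and 0.61 with 1 library left out. No other gene picked by the naming rule changed sign; Rps6, given as a list member, did so with a GC content trend removed. The causes were not tested, beyond what fewer libraries or a stricter null set by construction. T had 6 to 17 counts a library and a standard error of 0.67, so a small change of so low a gene was not detectable at this depth.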

Other observations

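Small nucleolar RNA genes, most of which lie in introns of other genes and are not polyadenylated when mature, summed to more in both EB libraries of each genotype than in its ESC libraries. Of 53 tested in control cells 17 were higher by edgeR (32.1%, against 18.2% of all genes), with a median of 0.88; their changes in knockout cells were not tested as a class. All genes of this class summed to 102.7 and 100.8 CPM in control ESCs and 162.0 and 186.0 CPM in control EBs, and to 88.7 and 108.9 CPM and 151.7 and 196.5 CPM in the knockout groups. Snord49a was at 4.53 and 3.45 CPM in control ESCs and 10.2 and 10.9 CPM in control EBs. Polyadenylated host transcripts overlap these genes, so the source of the reads was not tested.

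Of 72 unprocessed pseudogenes 1 was higher (1.39%) and 15 lower (20.8%, against 16.4% of all genes). Of 293 genes annotated as antisense 8 were higher (2.73%) and 29 lower (9.9%), both below the shares of all genes. In each control group the library with more counts had fewer genes with any count: 24161 and 23345 genes in ESC replicates 1 and 2, and 21653 and 23695 in EB replicates 1 and 2.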
